A study of Mus musculus with 8 samples.

Results

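The positive arm of the mouse circadian clock and a pair of repressors that act on the same DNA element were examined in RNA polymerase II (Pol II) contact data from liver. The 5 genes were taken by name: Arntl (which encodes BMAL1), Clock, Npas2, Bhlhe40 (DEC1) and Bhlhe41 (DEC2). They are 5 of 21887 protein-coding genes on the nuclear chromosomes of the RefSeq annotation of GRCm38.p6. Every paired-end tag (PET) with an end over the annotated span of one of these genes, or within 2.5 kb on either side, was kept. That gave 344 ends of 277 PETs in experiment JM08, 591 ends of 560 PETs in JM11 and 450 ends of 407 PETs in JM12.

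ChIA-PET pulls down crosslinked chromatin with an antibody, here 8WG16 against Pol II, and ligates DNA ends held in the same complex through a linker, so that each sequenced PET reports 2 positions in the genome. All libraries came from livers of wild-type C57BL/6 mice aged 3 to 6 months, kept in 12 h of light and 12 h of dark with free access to food, and none carried a mutation or received a drug. The labels describe 8 libraries, 4 of them from ZT06 and 4 from ZT18 (hours after lights on), each from the combined chromatin of 3 to 7 livers. JM08 (2 libraries at each time) and JM12 (1 at each time) were crosslinked with 1.5 mM EGS, a crosslinker that joins proteins, and 1% formaldehyde. JM11 (1 library at each time) was crosslinked with 1% formaldehyde and no EGS. The deposited table names the experiment of each PET but not its library or time, so each experiment is 1 pool of day and night, a difference between day and night was not analysed here, and no replicate test exists. Crosslinking and experiment cannot be told apart, since JM11 is the only pool without EGS.

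BMAL1 pairs with CLOCK, or with the related NPAS2, through bHLH and PAS domains, and the dimer binds E-box elements to drive transcription of the Period, Cryptochrome, Nr1d1 and Dbp genes. REV-ERB and ROR receptors act in turn on Arntl, Clock and Npas2 through a shared element. DEC1 and DEC2 are bHLH proteins with an Orange domain. They bind E-boxes too, lower transcription there, and their own genes respond to the clock, to feeding and to hypoxia.

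The 250 bases before the first transcript start were read from RefSeq's GRCm38.p6 promoter table for 4 of the 5 members, while Bhlhe40 had no entry there. Of these, 3 are printed to show how unlike the start regions are of a member with a sharp peak of Pol II contact ends, of a repressor gene, and of the member with the fewest ends at its start. Capitals mark matches to CACGTG (the E-box, the same on both strands) and to CCAAT or its reverse complement ATTGG (the CCAAT box). The Arntl stretch is chr7:113207215-113207464 on the plus strand, that of Bhlhe41 is chr6:145865421-145865670 on the minus strand, and that of Npas2 is chr1:39194022-39194271 on the plus strand. All run 5′ to 3′ in the direction of transcription.
Arntl: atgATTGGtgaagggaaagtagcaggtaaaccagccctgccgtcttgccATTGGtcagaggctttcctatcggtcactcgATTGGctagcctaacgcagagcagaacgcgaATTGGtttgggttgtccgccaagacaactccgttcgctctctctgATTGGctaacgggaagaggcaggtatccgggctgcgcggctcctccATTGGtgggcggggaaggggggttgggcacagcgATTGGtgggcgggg
Bhlhe41: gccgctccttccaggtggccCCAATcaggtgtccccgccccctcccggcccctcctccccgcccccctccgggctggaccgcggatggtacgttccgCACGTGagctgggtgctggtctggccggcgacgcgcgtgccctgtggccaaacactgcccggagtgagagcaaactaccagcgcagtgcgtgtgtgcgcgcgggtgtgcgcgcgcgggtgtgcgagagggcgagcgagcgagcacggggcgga
Npas2: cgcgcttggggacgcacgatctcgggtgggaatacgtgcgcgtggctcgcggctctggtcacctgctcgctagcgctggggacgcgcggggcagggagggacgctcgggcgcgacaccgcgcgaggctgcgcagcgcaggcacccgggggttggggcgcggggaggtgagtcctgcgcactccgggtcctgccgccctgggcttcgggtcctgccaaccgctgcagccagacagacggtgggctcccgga

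The Arntl stretch held 7 matches to the CCAAT box. At least 1 match was present in 34.5% of 27025 promoter stretches of the same length, the median number was 0, and 2 stretches of 27025, Arntl among them, held at least 7. Bhlhe41 had 1 CCAAT match and 1 E-box, a motif found in 6.04% of the stretches, and neither Clock nor Npas2 had a match to either. Another E-box form, CACGTT, was searched along with its reverse complement AACGTG and was present in 3.93% of stretches. The core of the REV-ERB and ROR element, AGGTCA, was searched along with its reverse complement TGACCT and was present in 13.8%. The D-box, TTATGTAA, was searched along with its reverse complement TTACATAA and was present in 0.862%. None of these had a match in the windows of the 4 members. The CpG dinucleotide occurred 34 times in the Npas2 stretch, 33 times in that of Clock, 31 times in that of Bhlhe41 and 16 times in that of Arntl, against a median of 6. The E-box forms share their first 5 bases and overlap no other motif searched by more than a few letters. A match describes letters only, and the CCAAT box was added after the sequences were seen.

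The table held 474466 nuclear PETs in JM08, 1438852 in JM11 and 837971 in JM12. Ends of different chromosomes made up 73.1% of them in JM08, 88.7% in JM11 and 80.2% in JM12. At the nuclear mean density of ends, a promoter window of 5 kb would hold 1.78 ends in JM08, 5.41 in JM11 and 3.15 in JM12, so the counts below are small. Density is given relative to that nuclear mean, with a 95% interval from the exact Poisson distribution of the number of PETs, which covers counting error only. A gene is called above the mean where the lower limit lies above 1. The tissue label was met by most of its markers: the median relative density over 10 hepatocyte genes was 47.5 in JM08, 6.51 in JM11 and 11.03 in JM12, and Alb, which encodes albumin, stood at 103, 9.06 and 15.5. Of the 10, 9 were above the mean in all experiments. Serpina1c was not, at 6.53 (4.52 to 9.13), 0.492 (0.198 to 1.015) and 1.585 (0.887 to 2.615). Medians of the Kupffer cell, sinusoidal endothelium, stellate cell and cholangiocyte markers lay between 0.786 and 1.79, beside 1.19, 1.17 and 1.39 for all protein-coding genes. Among these markers only Sox9, of cholangiocytes, was above the mean in all experiments, at 5.58 (3.31 to 8.82), 2.10 (1.30 to 3.22) and 4.67 (3.08 to 6.79). In these bulk samples, fewer cells using a gene and less Pol II per cell cannot be told apart.

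PET ends were piled up at the starts of Arntl and Bhlhe40, and mostly just upstream of the start of Bhlhe41. They were modestly raised at the start of Clock, and were not detectably above the mean at the start of Npas2 in 2 of the 3 experiments. The promoter window, 2.5 kb on either side of every annotated start, was above the nuclear mean in 4 of the 5 members in each experiment, against 36.3% of 17493 genes in JM08, 23.2% in JM11 and 39.2% in JM12. In all 3 experiments it was above the mean for Arntl, Bhlhe40 and Bhlhe41, which is 3 of 5 beside 16.6% of all genes. Over the whole span with its flanks, 3, 3 and 4 members were above the mean, beside 31.0%, 28.3% and 43.9% of genes. Bhlhe40 and Bhlhe41, the short genes of the group, were above it in every experiment, which 12.6% of genes were. Without PETs whose ends lie within 8 kb of each other, Bhlhe41 had a span density of 1.62 in JM11 and was no longer called there. With all PETs, the span of Bhlhe41 stood at 5.99 (26 ends), 2.13 (28 ends) and 3.91 (30 ends) in JM08, JM11 and JM12. That of Arntl stood at 1.495 (75 ends), 1.13 (172 ends) and 1.76 (156 ends), and was called in JM08 and JM12. That of Npas2 stood at 0.948 (59 ends), 1.16 (219 ends) and 1.41 (155 ends), and was called in JM11 and JM12, although relative to the median gene its JM11 value was 0.992. The median relative density of the 5 spans was 1.495, 1.16 and 1.76, beside 1.19, 1.17 and 1.39 over all genes.

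**Figure D1:**
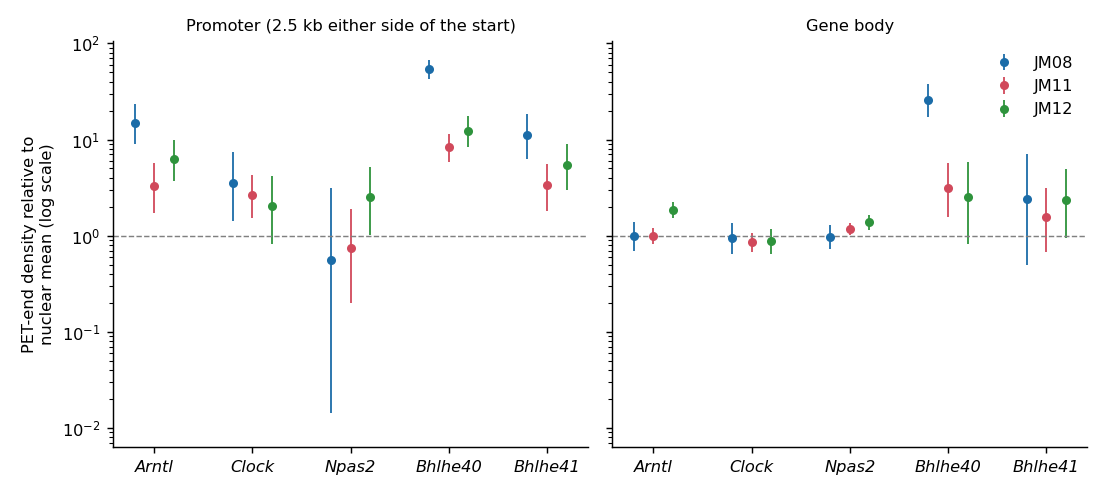
Density of PET ends relative to the nuclear mean (dashed line at 1, log axis) at the promoter (left) and over the gene body (right) of each member; points are the 3 experiments and bars the 95% Poisson intervals. Promoter values of Bhlhe40 lie between 8.32 and 53.8, above those of the other members in each experiment, while the bodies of Arntl, Clock and Npas2 lie between 0.852 and 1.85.

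Arntl encodes BMAL1, the partner that CLOCK and NPAS2 share in clock transcription. The gene lies on chromosome 7 from 113178471 to 113314126 on the plus strand, and its starts in the promoter table are at 113207465 and 113207511. A stretch of 26.5 kb of the annotated span lies before this promoter window. Its promoter window held 27 ends in JM08, 18 in JM11 and 20 in JM12. These correspond to relative densities of 15.0 (9.03 to 23.4), 3.30 (1.70 to 5.76) and 6.29 (3.73 to 9.95). All intervals were above 1, and 6.23% of 17493 genes had a higher middle value of the 3 experiments.

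The ends of Arntl were concentrated in a narrow stretch. Of 141 bins of 1 kb across its span, the bin from 113206971 to 113207970, which holds both starts, had 45 ends (22 in JM08, 11 in JM11 and 12 in JM12), while the median bin had 2 and the next highest had 8. The printed stretch with its 7 CCAAT boxes lies within this bin. Promoter density exceeded that of the body 15.1-fold in JM08 (8.09 to 27.3, from the exact conditional binomial interval), 3.29-fold in JM11 (1.65 to 5.97) and 3.41-fold in JM12 (1.95 to 5.63). In JM11 this rested on PETs whose ends lie within 8 kb of each other: they gave 12 of the 18 promoter ends, and the ratio without them was 1.14. In JM08 the ratio without them was 7.83.

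The body of Arntl carried a different pattern. Its relative density was 0.997 in JM08 (37 ends), 1.00 in JM11 (113 ends) and 1.85 in JM12 (121 ends, 1.52 to 2.22). JM12 exceeded JM11 by 1.78 times (1.36 to 2.33, from PETs), and JM08 by 1.97 times (1.33 to 3.00). By the ratio of end densities, 6.00% of 3431 genes with at least 100 body ends had a larger ratio of JM12 to JM11 than Arntl's 1.84, and the median gene had 1.03. For JM12 to JM08, 6.50% of 2015 genes had a larger ratio than Arntl's 1.85, and the median gene had 1.21. The higher density of JM12 was not a matter of a few sites: in 10 kb steps along the body it was above both other experiments in 8 of 11 steps, and ranged from 0.794 to 3.44. An annotated lncRNA, Gm33721, lies within this body, and the assay does not tell strands apart. These ratios between experiments were examined after the values had been seen.

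Clock encodes the bHLH-PAS partner of BMAL1. It lies on chromosome 5 from 76209868 to 76305603 on the minus strand, with starts at 76304792, 76304548 and 76303502. Its promoter window held 8, 18 and 8 ends in JM08, JM11 and JM12, at relative densities of 3.57 (1.43 to 7.35), 2.65 (1.51 to 4.30) and 2.02 (0.812 to 4.16). The JM12 interval includes 1. Promoter density exceeded body density 3.74-fold (1.38 to 8.72), 3.10-fold (1.70 to 5.34) and 2.27-fold (0.866 to 5.07), so in JM12 a difference was not detectable at this depth.

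Clock's peak was lower than Arntl's but as well placed. The densest of 101 bins, from 76304368 to 76305367, held 18 ends across the experiments and straddled the most upstream start, whereas the next held 6. Its body was near the nuclear mean, at 0.954, 0.852 and 0.889 in the 3 experiments. The lncRNA Gm7467 is annotated across the same start region (76304876 to 76305527), and Tmem165 ends 0.624 kb from the other end of Clock. Ends at these places cannot be told apart by gene.

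Npas2 encodes the paralog that can take CLOCK's place beside BMAL1. The gene lies on chromosome 1 from 39193702 to 39363240 on the plus strand. Only 1 end in JM08, 4 in JM11 and 8 in JM12 fell in its promoter window, at relative densities of 0.561 (0.0142 to 3.13), 0.740 (0.202 to 1.89) and 2.54 (1.02 to 5.23). By the middle value, 77.2% of genes had a denser promoter. The ends over Npas2 were instead spread along its body, which is the longest of the members at 166 kb outside the promoter window.

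In the Npas2 body, 58, 212 and 144 ends gave relative densities of 0.977 (0.723 to 1.29), 1.18 (1.02 to 1.35) and 1.37 (1.15 to 1.63). By each gene's own middle value of the 3 experiments, this body stood at 1.18 and the median over genes was 1.12. It was thus near the typical gene. None of 175 bins held more than 7 ends, and the 4 bins that reached 7 lay between 21.4 and 107 kb after the start. The ratio of promoter to body was 0.574 (0.0142 to 3.35), 0.628 (0.170 to 1.63) and 1.85 (0.729 to 3.92). No direction can be read from these intervals. Of all members, Npas2 was the only one with no experiment in which the promoter was called denser than the body.

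**Figure D2:**
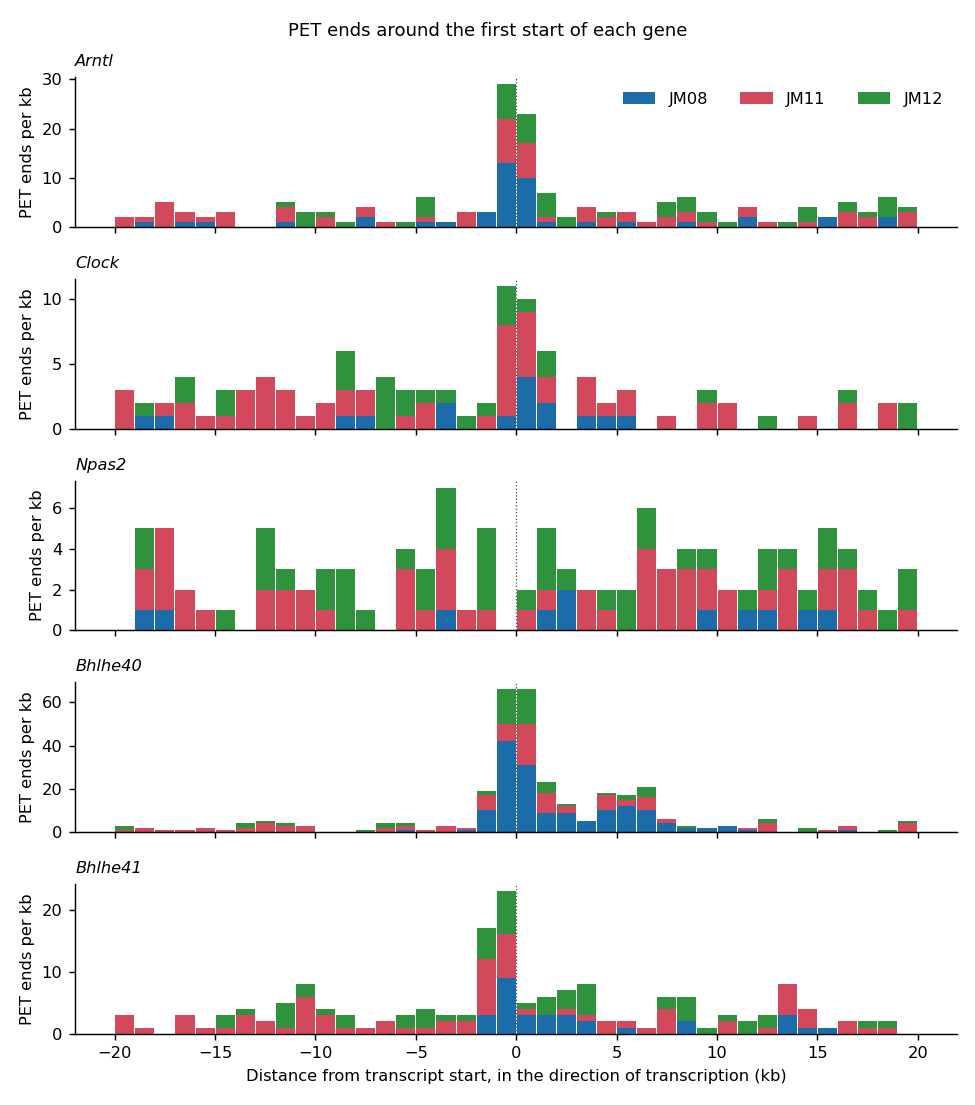
Number of PET ends in each 1 kb bin from 20 kb before to 20 kb after the first transcript start (dotted line), stacked by experiment, with a separate vertical scale for each gene. The bins just before and just after the start hold 29 and 23 ends for Arntl and 66 each for Bhlhe40, whereas the bins beside the start of Npas2 do not stand out.

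Bhlhe40 encodes DEC1, a repressor at E-boxes that is induced by many stimuli. It had the densest signal of the group. The gene is short, from 108660629 to 108666925 on chromosome 6, and its plus strand and start at the lower coordinate were taken from general knowledge, since the promoter table lacks it. The promoter window held 96 ends in JM08, 45 in JM11 and 39 in JM12, at relative densities of 53.8 (42.4 to 67.5), 8.32 (5.89 to 11.4) and 12.4 (8.41 to 17.6). By the middle value, 0.566% of 17493 genes had a denser promoter.

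The densest bin of Bhlhe40, from 108660129 to 108661128, contained its start and 86 ends. Of these, 52 came from JM08, 15 from JM11 and 19 from JM12. The lncRNA 0610040F04Rik ends at 108660934, past the start of Bhlhe40, so ends there cannot be assigned to one of them. The body held 35 ends in JM08 at 25.9 (17.0 to 37.6), 13 ends in JM11 at 3.17 (1.58 to 5.67) and 6 ends in JM12 at 2.51 (0.815 to 5.86). It was above the mean in JM08 and JM11, where the body of Arntl was not, and in JM12 its interval includes 1. Promoter density exceeded it 2.08-fold (1.33 to 3.36), 2.63-fold (1.32 to 5.70) and 4.93-fold (1.90 to 16.3). With a window of 5 kb on either side, which covers most of this gene, the ratio was 1.08 in JM08 and 1.33 in JM12.

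JM08 stood above the other experiments at Bhlhe40. In promoter PETs its excess was 5.99-fold over JM11 (4.00 to 9.09) and 4.27-fold over JM12 (2.78 to 6.72). Most promoters with at least 20 ends were denser in JM08. The median ratio of end densities was 3.35 over JM11 and 1.85 over JM12, and 80.0% and 44.1% of genes passed 2-fold. Both intervals of Bhlhe40, which are of PETs, lay above these medians. Arntl, at 4.80 (2.21 to 10.9) and 1.86 (0.926 to 3.77), and Bhlhe41, at 3.25 (1.46 to 7.27) and 1.89 (0.852 to 4.23), had intervals that include them. For Clock the ratio of JM08 to JM11 was 1.33 (0.462 to 3.41). The height of JM08 was not particular to Bhlhe40. Over hepatocyte markers the median promoter density was 65.45 in JM08, 10.4 in JM11 and 14.7 in JM12. Promoters of the 2 genes most like Bhlhe40 in density were at 39.3, 6.92 and 9.45 (Selenop) and at 43.2, 6.10 and 10.8 (Thrsp). These 2 were picked by their densities in the same experiments, so their likeness is by selection and adds no evidence.

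The Bhlhe40 body in JM08 was at 7.44 times JM11 (3.57 to 16.6), and JM12 had 0.105 of the level of JM08 (0.0315 to 0.276). These intervals, from PETs, overlap those of the promoter. By end densities the 2 ratios of Bhlhe40 were 8.165 and 0.0971. Among genes with at least 100 body ends, a minimum that Bhlhe40 did not reach, the median ratios of end densities were 0.821 and 1.21. JM08 and JM12 share the crosslinkers named in the labels. Beyond the annotated end, the 2.5 kb after Bhlhe40 held 14 ends in JM08, at 15.7 (8.12 to 27.4), against 6 ends in JM11 and 3 in JM12 at 2.22 and 1.91. No other member had a call in this tail in JM08. In JM12 the tail of Bhlhe41 did, with 6 ends at 3.81 (1.24 to 8.89).

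Bhlhe41 encodes DEC2, the paralog of DEC1, which shares its E-box target. It also lies on chromosome 6, from 145858243 to 145865420 on the minus strand. Its promoter held 20, 18 and 17 ends in JM08, JM11 and JM12, at relative densities of 11.2 (6.28 to 18.5), 3.33 (1.82 to 5.59) and 5.40 (2.95 to 9.06). These were close to the values of Arntl in each experiment. The densest bin, from 145865743 to 145866742, had 27 ends and lay wholly upstream of the start, with its centre at -0.823 kb from it. The 12 ends of the bin with the start came second. The body held 4, 8 and 7 ends, so that the promoter ratio of 4.68 (1.32 to 25.2) in JM08 was called, while 2.10 (0.824 to 5.79) in JM11 and 2.27 (0.858 to 6.65) in JM12 were not.

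Over the group, the promoter was denser than the body in 4 members in JM08, 3 in JM11 and 2 in JM12, beside 31.5%, 17.8% and 26.4% of 14143 genes. Arntl and Bhlhe40 were called in all 3 experiments, a result shared by 10.6% of genes. Ratios of the median gene were 2.20, 1.32 and 1.71.

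The 5 promoters were also compared pairwise, 10 pairs in each experiment, with intervals that were not adjusted for the number of pairs. Density here is the number of PETs per base of the window, not of ends, so ratios differ from those of the end densities above. Bhlhe40 was denser than Clock, Npas2 and Bhlhe41 in every experiment. It exceeded Bhlhe41 5.00-fold in JM08 (2.85 to 9.37), 2.71-fold in JM11 (1.44 to 5.42) and 2.21-fold in JM12 (1.14 to 4.51). Against Bhlhe40, Arntl had 0.251 of its density in JM08 (0.143 to 0.420) and 0.313 in JM11 (0.149 to 0.612), whereas the JM12 ratio of 0.575 (0.303 to 1.06) did not separate them. Arntl and Bhlhe41 were not separated in any experiment, with ratios of 1.26 (0.604 to 2.65), 0.849 (0.359 to 1.98) and 1.27 (0.599 to 2.77). Arntl was denser than its partner Clock in JM08, 3.38-fold (1.36 to 9.52), and in JM12, 3.21-fold (1.28 to 9.08). In JM11 the 2 were not separated, at 0.935 (0.404 to 2.11). By ends, Arntl was the higher there, at 3.30 beside 2.65, so no direction can be read in JM11. Clock was denser than Npas2 in JM11, 3.18-fold (1.03 to 13.1), and no difference was detectable in JM08 or JM12.

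**Figure D3:**
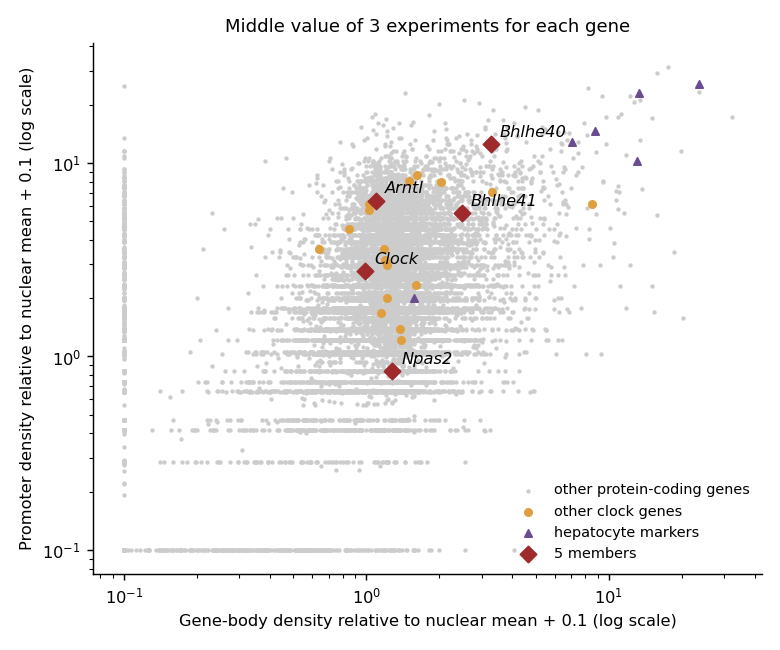
Promoter against gene-body density, both relative to the nuclear mean plus 0.1 and on log axes, as the middle value of the 3 experiments for each protein-coding gene with both regions (grey), with other clock genes (orange), hepatocyte markers (purple) and the 5 members (red diamonds). Arntl and Clock lie in the main cloud of body densities with raised promoters, Npas2 lies below 1 at its promoter, and the DEC genes lie to the upper right, towards the hepatocyte markers.

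The table carries 2 linker sequences per experiment, called linker 1 and linker 2 here, and no source used here ties them to libraries or times. They give 6 subsets in all. The promoter of Arntl was above the mean in 6 of 6 subsets, at 2.61 to 17.9, and that of Bhlhe40 in 6 of 6, at 5.76 to 57.9. Bhlhe41 was above it in 4 of 6 subsets, Clock in 2 of 6 and Npas2 in 1 of 6. No share over all promoters is given for single subsets, so these counts have no background beside them. At Bhlhe41, linker 1 and linker 2 gave 15.1 (6.89 to 28.6) and 8.55 (3.14 to 18.6) in JM08, 10.5 (4.80 to 19.9) and 1.20 (0.389 to 2.80) in JM11, and 8.68 (4.16 to 16.0) and 2.42 (0.660 to 6.20) in JM12. The JM11 intervals did not overlap, and in the other experiments they did. At Bhlhe40 in JM11 the values were 17.0 (9.69 to 27.5) and 5.76 (3.61 to 8.72), again without overlap. In JM11, linker 1 held 329515 PETs and linker 2 held 1109337. Whether promoters in general differ between the linkers was not tested, so these differences cannot be called particular to the DEC genes. In JM08 and JM12, however, Bhlhe40 had the lower value with linker 1, at 47.9 and 9.34 beside 57.9 and 15.1.

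**Figure D4:**
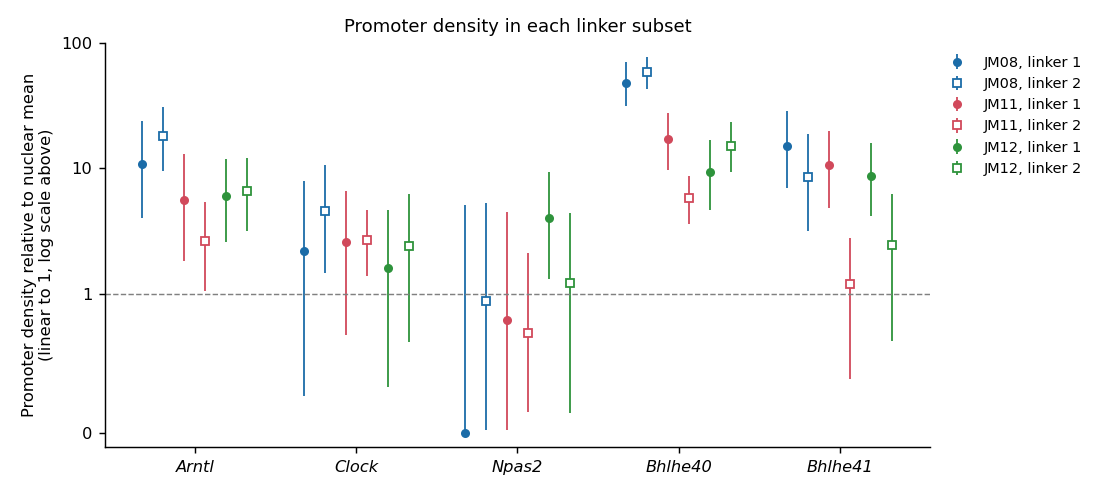
Promoter density relative to the nuclear mean (dashed line at 1, axis linear up to 1 and logarithmic above) for the 2 linker subsets of each experiment, with 95% Poisson intervals; filled circles are linker 1 and open squares linker 2. All 6 intervals of Arntl and of Bhlhe40 lie above 1, and those of Bhlhe41 with linker 2 in JM11 and JM12 include it.

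Among 22 other clock genes, 13, 16 and 17 spans were above the mean in JM08, JM11 and JM12, and 10 were in all 3 experiments. Of all genes, 31.0%, 28.3% and 43.9% were, and 12.6% in all 3. The median relative densities of the 22 were 2.12, 1.40 and 2.39, beside 1.19, 1.17 and 1.39 over all genes. By the middle value of the 3 experiments, the densest were Dbp, a bZIP activator driven by BMAL1 and CLOCK, at 42.7, 4.94 and 8.02, and Nr1d1, which encodes REV-ERB alpha, at 13.5, 1.78 and 4.59. Bhlhe40, at 36.0 (29.6 to 43.3), 5.24 (3.93 to 6.85) and 6.75 (4.80 to 9.22), thus had values close to those of Dbp, and its intervals overlap those of Dbp in each experiment. At the low end were Btrc, at 1.01, 1.15 and 1.11, and Csnk1e, at 0.919, 0.866 and 1.93, both of which encode parts of the machinery that marks clock proteins for breakdown. Clock, at 1.09 (39 ends), 0.992 (108 ends) and 0.962 (61 ends), lay between these by the middle value. It was above both in JM08 and below both in JM12. These are densities over whole spans, of which a promoter window is a small part in a long gene. Over the 17 of the other clock genes with an annotated start, the median promoter densities were 5.61, 2.09 and 4.45, beside 3.57, 2.65 and 2.02 for Clock.

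The relatives of the members by protein family were counted in the same way, beside the shares of 31.0%, 28.3% and 43.9% over all genes. Of 12 other bHLH-PAS genes, 4, 5 and 8 spans were above the mean, with medians of 1.02, 1.20 and 1.5, and 2 were in all experiments. Highest by the middle value of the experiments was Epas1, which encodes the hypoxia factor HIF-2 alpha, at 3.05, 1.47 and 2.37, followed by Ahr, the dioxin receptor, at 1.60, 1.21 and 1.66. Ahrr, at 1.01, 1.45 and 0.884, and Npas1, at 0.860, 0.850 and 1.64, were lowest by that middle value. Neither order held in every experiment, as Ahrr was above Ahr in JM11. Npas2 and Clock had spans in the same range. Over the 9 of these bHLH-PAS genes with an annotated start, median promoter densities were 1.12, 1.29 and 2.22. Those of Clock were 3.57, 2.65 and 2.02, and those of Npas2 were 0.561, 0.740 and 2.54. Of 10 other bHLH-Orange genes, the family of the DEC proteins, 3, 4 and 7 were above the mean, with medians of 1.46, 1.40 and 2.38. Highest by the middle value were Hes6, at 14.5, 3.92 and 8.20, and Hes1, a Notch target, at 20.4, 3.11 and 7.26. Lowest by it were Hes2, at 0.652, 0.753 and 1.85, and Hes7, at 0.553, 0.729 and 2.19.

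By promoter and body density in the 3 experiments (6 values on a log2 scale, after adding 0.5), the genes most like each member were found among 7188 genes with at least 20 promoter ends. For Arntl they were Cpeb4 and Nisch, at Euclidean distances of 0.303 and 0.348, and the promoter of Nisch had 15.1, 3.14 and 5.72 times the mean. Clock was nearest to Dhcr7 and Zfp106 (0.362 and 0.376). Bhlhe41 was nearest to Bphl and Zc2hc1c (0.305 and 0.350). Bhlhe40 was nearest to Selenop, which encodes a selenium carrier made by the liver, and to Thrsp, a gene of lipid synthesis, but at larger distances of 0.803 and 0.918. Npas2 was nearest to Rap1gap2 and Pkig (0.240 and 0.267), and its own 13 promoter ends were below that minimum.

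Few PETs tied the members to distant places on their own chromosome. In all, 65 of 1244 PETs over the members had their other end on the same chromosome and over 8 kb away, or 5.23% (exact binomial interval 4.06 to 6.61), beside 4.95% of all nuclear PETs. The latter share counts each PET once, whereas a PET with distant ends can be met at 2 places, so the comparison is approximate. There were 29 such PETs for Npas2, 12 each for Arntl and Clock, 10 for Bhlhe40 and 2 for Bhlhe41. Their share of a gene's PETs ran from 2.90% (0.353 to 10.1) for Bhlhe41 to 7.16% (4.85 to 10.1) for Npas2. The median distance was 42.9 Mb, beside 37.6 Mb for all such PETs, and 3 of the 65 were within 1 Mb.

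These 3 contacts within 1 Mb were single PETs of different members, and 2 are described. At Npas2, a PET of JM12 joined 39192714, in the promoter window, to 39105563, which is 87.2 kb away and in a gap between genes, 108 kb from Pdcl3. At Bhlhe40, a PET of JM08 joined 108659317, in the promoter window, to 108846858 in Edem1, 188 kb away.

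Just beyond 1 Mb, the Arntl promoter had a pair of PETs in JM12. One ran 1.07 Mb from 113207514 to 114276095, at the start of Psma1, a proteasome subunit gene, and the other 1.57 Mb from 113207217 to 114771945, within Insc. The Bhlhe40 promoter had a PET of 1.12 Mb in JM08 whose far end at 109774490 lay outside genes. None of the 12 far PETs of Clock was shorter than 8.80 Mb.

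Where on the gene the near ends lay differed between members, as did the placing of all their PETs. For Bhlhe40, 10 of 10 far PETs began in the promoter window. For Npas2, 27 of 29 began in the body and 2 in the promoter, for Clock 9 of 12 began in the body, and for Arntl 5 began in the body and 2 in the promoter. The body outside the promoter window is 166 kb long at Npas2 and 3796 bp at Bhlhe40. Of all PETs over Bhlhe40, 75 of 112 in JM08, 38 of 53 in JM11 and 31 of 39 in JM12 had an end in the promoter window. Of all PETs over Npas2, 49 of 50, 207 of 214 and 131 of 141 had an end in the body. For Clock these were 29 of 36, 84 of 105 and 46 of 55, and for Arntl 33 of 60, 111 of 164 and 115 of 146. Of the 65 far ends, 4 were within 2.5 kb of an annotated start, or 2 of Clock, 1 of Arntl and 1 of Npas2. Among all ends of such PETs, 6.71% were.

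**Figure D5:**
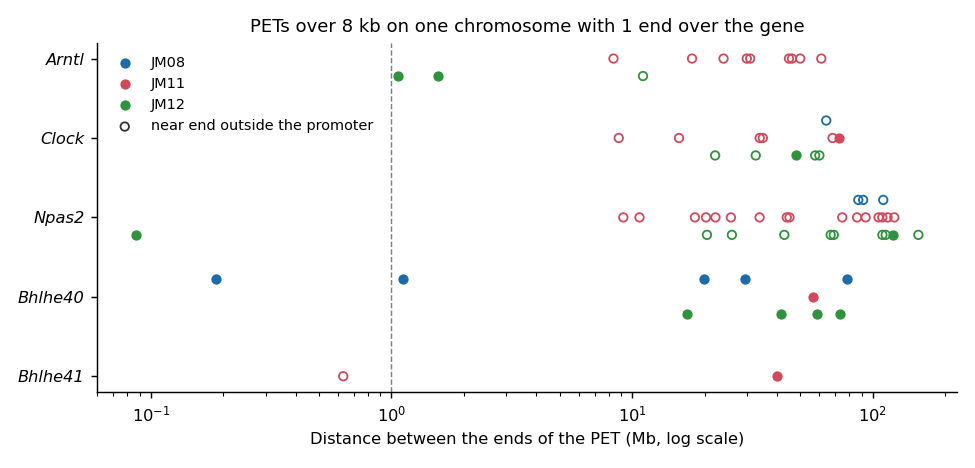
Distance between the ends of each of the 65 same-chromosome PETs over 8 kb apart with an end over a member, in Mb on a log axis, with 1 row per gene and colours for the experiments. Filled points have their near end in the promoter window, and the dashed line marks 1 Mb; 3 points lie to its left, and all 10 points of Bhlhe40 are filled.

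Most PETs of the members joined different chromosomes, and their partner ends were scattered. For Arntl, 4.44% of 45 partner ends in JM08, 4.76% of 147 in JM11 and 11.3% of 133 in JM12 (6.45 to 17.9) lay at an annotated start, beside 9.53%, 4.37% and 7.21% of all ends of such PETs. For Bhlhe41 in JM11, 4 of 18 partner ends did (22.2%, 6.41 to 47.6). The other values for the members had intervals that include the level of all ends, among them Bhlhe40 at 9.46%, 10.0% and 3.85%. No PET joined a pair of members. Among all genes of the lists, 4 PETs were found: Arntl to Rora in JM08, Arntl to Per3 in JM11, Arntl to Ahr in JM12 and Bhlhe40 to Trf in JM12. Each was seen in 1 PET.

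PETs within 8 kb also served as a measure of local signal. They were 22.5% of all nuclear PETs in JM08, 6.23% in JM11 and 14.8% in JM12. At Bhlhe40 they were 29.5% (21.2 to 38.8, exact binomial interval), 22.6% (12.3 to 36.2) and 23.1% (11.1 to 39.3) of the gene's PETs. A gene's share cannot be set directly against that of all PETs. A PET with distant ends can be met at 2 places, and a PET within 8 kb at 1. Relative to the nuclear mean of ends of PETs within 8 kb, the Bhlhe40 span stood at 72.7 (50.0 to 102), 30.2 (15.6 to 52.8) and 17.1 (7.84 to 32.5) in JM08, JM11 and JM12. The share was 6.85% (3.33 to 12.2) at Arntl in JM12, 2.34% (0.763 to 5.37) at Npas2 in JM11 and 8.33% (1.75 to 22.47) at Clock in JM08. The matching span densities were 1.53 (0.734 to 2.81), 0.850 (0.276 to 1.98) and 0.741 (0.153 to 2.17), so no deficit was detectable over these spans. The Clock body in JM11, with 1 end, was below the mean at 0.163 (0.00412 to 0.907). Other spans were above it. Arntl in JM08 stood at 2.65 (1.485 to 4.38). Bhlhe41 stood at 14.3 (5.75 to 29.5), 9.75 (2.66 to 25.0) and 7.07 (1.93 to 18.1) in JM08, JM11 and JM12. The ends of PETs within 8 kb were a median of 211 bp apart at Bhlhe40, 254 bp at Arntl and 332 bp at Bhlhe41, beside 278 bp for all. In PETs joining chromosomes, the relative density at the Bhlhe40 promoter in JM08 was 36.8 (27.2 to 48.8), at that of Arntl 8.36 (4.17 to 15.0), and at that of Bhlhe41 6.90 (3.16 to 13.1). Those lower limits were above 1. In JM12 the values were 7.52 (4.53 to 11.7), 5.49 (3.00 to 9.21) and 4.35 (2.17 to 7.79). In JM11 Bhlhe40 was again above the mean, at 6.05 (4.05 to 8.69), whereas Arntl at 1.24 (0.455 to 2.70) and Bhlhe41 at 1.88 (0.858 to 3.56) were not called, unlike with all PETs.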

How the data were processed

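Pol II ChIA-PET was done on pooled mouse livers, per the labels' protocols. The authors deposited 1 table of PETs with the experiment, linker letters, chromosomes and positions. Bowtie2 and mm10 are named in the submitters' processing notes, with no word on how duplicates or filters were handled. All positions are treated as mm10, which is GRCm38.

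PETs with a mitochondrial end (12 in JM08, 14 in JM11 and 2239 in JM12) were left out, and none touched a member. Ends were counted over each gene and 2.5 kb either side and divided by the nuclear mean over 2.66 Gb. The promoter is the window of 2.5 kb around every RefSeq start, and the body runs from the first window to the annotated end. Listed starts were used in place of the span's boundary after the files were seen, because the Arntl span begins upstream of them. Genes whose body is under 1 kb have no ratio. Intervals are 95%, exact Poisson or binomial, and cover counting error only. Tag ends within one PET are not independent, so intervals rest on PETs.

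All members are named. Of the lists of other clock, bHLH-PAS and bHLH-Orange genes, the highest and lowest in density are named. Genes most like a member and those nearest to a contact within 1 Mb are named too. Of the cell type marker lists, single genes are named beside the medians. Far PETs just beyond 1 Mb were named after their values were seen. One contact within 1 Mb is not reported here by position. Members and lists were chosen with earlier results of these data known. Alternatives changed the window, the PET class, duplicates, the reference level, the distance limit and the experiments used. Python 3.11.15, numpy 2.4.6, scipy 1.17.1 and pandas 2.3.3 were used.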

Additional observations from a re-analysis of the deposited data

How the results depend on the processing

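Each experiment is a pool, so depth limits every value: at the nuclear mean a promoter window holds 1.78 to 5.41 ends, and a 2-fold difference between single genes is often not detectable. Of 234 values under alternatives, 48 over the group and 158 of single genes kept their direction and stayed within their interval or within 1.5 times a count. Without PETs within 8 kb, the number of members above the nuclear mean in all experiments was 1 in place of 2, and the number denser at the promoter was 1 in place of 2, Bhlhe40 each time; this leaves fewer PETs. With windows of 5 kb, the number denser at the promoter was 1, Arntl, and the window takes up most of the Bhlhe40 gene. Relative to the median protein-coding gene in place of the nuclear mean, the median relative density of the members was 0.992 in JM11, the value of Npas2, which fell below 1 there, and 1.27 in JM12; the median gene itself lies at 1.17 and 1.39 of the nuclear mean. Leaving out each experiment in turn gave 31 to 56 PETs over 8 kb apart in place of 65, with 31 without JM11 and 43 without JM12, by the loss of its PETs. Collapsing PETs within 2 bp removed 1 PET of Bhlhe40 and 2 of Bhlhe41. No paired analysis was possible because the deposited table has no column for a library or replicate.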
